A study of Mus musculus with 26 samples.

Results

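The genes described here are the MHC class I presentation genes of the mouse small intestinal epithelium, 10 genes of the 20409 symbols listed over 4 tables of FPKM values (fragments scaled to transcript length and library size). They were chosen by symbol: H2-K1 and H2-D1, B2m, Tap1, Tap2, Tapbp, Nlrc5, Psmb8, Psmb9 and Psmb10. All 10 were present in each table. The 26 libraries were made from polyadenylated RNA of the epithelium of the proximal small intestine, taken as a whole. Every mutant carried an inducible deletion driven by Villin-CreERT2, a Cre active in intestinal epithelial cells after tamoxifen, so the deletion was confined by its driver to the epithelium. Days count from the first of 4 daily injections.

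The day 6 SMAD1/5 table held 3 controls and 3 SMAD1/5 iDKO libraries, in which SMAD1 and SMAD5 were deleted together, all of them given tamoxifen. The day 30 SMAD table held 5 controls, 2 SMAD1/5 iDKO and 3 SMAD1/4/5 iTKO libraries. Controls 1 and 2 of that table came from the SMAD1/5 line and had been given tamoxifen, while controls 3, 4 and 5 came from the SMAD1/4/5 line and had been given oil. The day 6 SMAD4 table held 2 oil-treated controls and 2 tamoxifen-treated SMAD4 iKO libraries. The day 30 TBX3 table held 3 oil-treated controls and 3 tamoxifen-treated TBX3 iKO libraries. Controls were littermates matched for sex, and in those given oil the effects of tamoxifen and of the deletion cannot be told apart. The labels do not say that each library is a separate animal, so p-values measure the spread between these libraries.

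MHC class I molecules show peptides from a cell's own proteins to CD8+ T cells, and nearly all nucleated cells make them. The proteasome cuts the proteins, the TAP transporter carries the peptides into the endoplasmic reticulum, and a heavy chain folded with beta-2 microglobulin binds them there. Interferons raise the whole set, partly by replacing the constitutive catalytic subunits of the proteasome with those of the immunoproteasome, and NLRC5 is the coactivator that drives class I genes from a conserved promoter module. Enterocytes present class I constitutively, and class II, which displays peptides taken up from outside to CD4+ T cells, is also found on intestinal epithelium.

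That module can be read in the RefSeq promoters (build GRCm38.p6), which matched 8 of the 10 genes. The 200 bases before the start are printed for the chains and for Tap1, whose stretch overlaps that of Psmb9 by 175 bases. Capitals mark matches, on either strand, to the interferon-stimulated response element (matched as GAAACTGAAA in B2m), GAAGTGAAA (the IRF part of the class I enhancer), the palindromic kB element of class I genes, TGACG (the core of the X2 box), CCAAT (the Y box), GGCGCC (a GC-rich SMAD motif), TTCNNNGAA (an interferon-gamma activated site) and AGGTGTGA (a T-box site). The H2-K1 stretch is chr17:34000334-34000533 on the minus strand, and the plus-strand stretches are chr17:35262894-35263093 for H2-D1, chr2:122147487-122147686 for B2m and chr17:34187356-34187555 for Tap1.
H2-K1: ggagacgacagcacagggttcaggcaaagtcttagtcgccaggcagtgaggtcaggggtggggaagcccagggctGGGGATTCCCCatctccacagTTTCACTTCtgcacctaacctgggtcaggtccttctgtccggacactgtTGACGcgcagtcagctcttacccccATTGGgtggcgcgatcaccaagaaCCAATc
H2-D1: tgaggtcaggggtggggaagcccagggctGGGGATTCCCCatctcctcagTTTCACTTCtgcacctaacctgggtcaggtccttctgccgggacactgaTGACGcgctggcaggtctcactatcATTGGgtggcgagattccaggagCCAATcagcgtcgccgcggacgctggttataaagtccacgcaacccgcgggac
B2m: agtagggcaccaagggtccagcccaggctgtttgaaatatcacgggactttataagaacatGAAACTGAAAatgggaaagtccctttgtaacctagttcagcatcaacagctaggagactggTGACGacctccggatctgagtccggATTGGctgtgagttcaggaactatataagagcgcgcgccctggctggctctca
Tap1: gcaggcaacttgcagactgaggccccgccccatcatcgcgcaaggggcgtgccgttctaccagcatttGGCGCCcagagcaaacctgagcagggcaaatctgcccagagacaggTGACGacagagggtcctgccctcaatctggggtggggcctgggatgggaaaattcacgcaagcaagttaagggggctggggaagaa

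The H2-K1 and H2-D1 stretches each held the kB element, the IRF element, TGACG and CCAAT boxes in the same order. Among 32851 RefSeq promoters searched over the same length, 0.027% held the kB element and 0.307% the IRF element. Both strings are those known from class I genes, so finding them in H2-K1 and H2-D1 is a description and not a test. TGACG was found in 5 of the 8 genes' stretches and in 15.7% of all, with those of Tap1 and Psmb9 being the same bases. CCAAT was found in 5 of 8 and in 29.3% of all. The interferon-stimulated response element was found in B2m alone among the 8, against 2.27% of all promoters. GGCGCC was found in Tap1 and Psmb9, in the bases they share, against 8.43% of all. TTCNNNGAA was found in Psmb8 alone (5.49% of all), and AGGTGTGA in none of the 8 (0.907% of all). The starts of Psmb9 and Tap1 lie 226 bases apart and are read in opposite directions.

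The 10 epithelial markers were above 0 in every library, with summed levels of 8613 to 20851 FPKM. Per library, an estimated 21.0 to 30.5 M fragments (M, mega) stood behind the SMAD1/5 values of day 6. The range was 13.1 to 18.1 M for the SMAD libraries of day 30, and TBX3 libraries had at most 18.6 M. It could not be estimated for the SMAD4 table. Smad4 FPKM fell in the tables labelled for its deletion, from 147 ± 15.1 (SD, n = 5) in controls to 38.0 ± 7.64 (SD, n = 3) in iTKO, and from 23.9 ± 1.40 (SD, n = 2) to 6.15 ± 1.47 (SD, n = 2) in SMAD4 iKO. Tbx3 was 51.8 ± 5.63 in TBX3 controls and 15.8 ± 7.76 in TBX3 iKO (SD, n = 3 each). Smad1 overlapped between groups, and Smad5 was higher in iDKO than in controls, 11.4 ± 1.53 against 5.95 ± 0.334 at day 6 (SD, n = 3 each). These values cover whole transcripts and not the deleted exons, so they do not check those labels, and iDKO names the libraries labelled so. Epithelial markers rose in 5 of 10 genes in the day 6 iDKO (15.5% of all genes) and in 6 of 10 in the day 30 iDKO (9.43%). In the iTKO 4 of the 10 rose (9.13%) and 2 fell (8.95%). Paneth cell markers fell in 9 of 10 genes in both the day 30 iDKO (median -1.45, with 9.31% of all genes lower) and the iTKO (-1.62, with 8.95%). Their part in the class I and class II values was not tested. In the day 6 SMAD1/5 table, control 2 and iDKO 2 stood apart with low Paneth cell genes.

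Libraries of the day 30 SMAD table also stood apart in genes of the MHC region. H2-DMb2, a chain of the class II peptide editor, lay between 0.318 and 0.628 FPKM in controls 1, 2 and 4 and in iDKO 1, and between 11.3 and 28.7 FPKM in controls 3 and 5, iDKO 2 and all 3 iTKO libraries. No library lay between those ranges, and the split crossed lines, treatments and genotypes. In the SMAD4 table, SMAD4 iKO 2 had H2-DMb2 at 0.364 FPKM and H2-L, a class I chain gene, listed at 0, while the other 3 libraries had H2-DMb2 of 5.64 to 10.9 FPKM and H2-L of 16.9 to 20.9 FPKM. Mouse strains differ in their H2 haplotype, and class I chains are among the most polymorphic genes. Reads of H2-K1, H2-D1 and the near-identical H2-Q and H2-T genes can be split between copies in counting, so each chain's value is uncertain. Whether the libraries share one haplotype was not tested.

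Few class I genes passed the test in any comparison. With a threshold of 0.05 on the limma p adjusted over all genes tested, none of the 10 passed in the day 6 iDKO (15.5% of all genes passed as higher and 8.26% as lower). None of the 10 passed in the day 30 iDKO either (9.43% and 9.31%). In the day 30 iTKO, 2 genes passed as higher (9.13% of all genes) and 1 as lower (8.95%). Of the 10, none passed between iTKO and iDKO (0.218% and 0.544%), none in the SMAD4 iKO (1.28% and 2.14%), and none of the 9 tested in the TBX3 iKO (1.34% and 2.08%). At an unadjusted p under 0.05, the numbers were 0, 0, 6, 4, 3 and 0 in the same order, against 41.4%, 31.6%, 31.8%, 11.4%, 20.8% and 17.3% of all genes.

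Median log2 changes of the class I genes were -0.09 in the day 6 iDKO, 0.15 in the day 30 iDKO, 0.28 in the iTKO, -0.30 in the SMAD4 iKO and 0.03 in the TBX3 iKO. The medians of all genes tested were 0.18, 0.01, 0.01, 0.03 and -0.06 in those comparisons. The day 30 iDKO and iTKO were set against the same 5 controls.

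**Figure D1:**
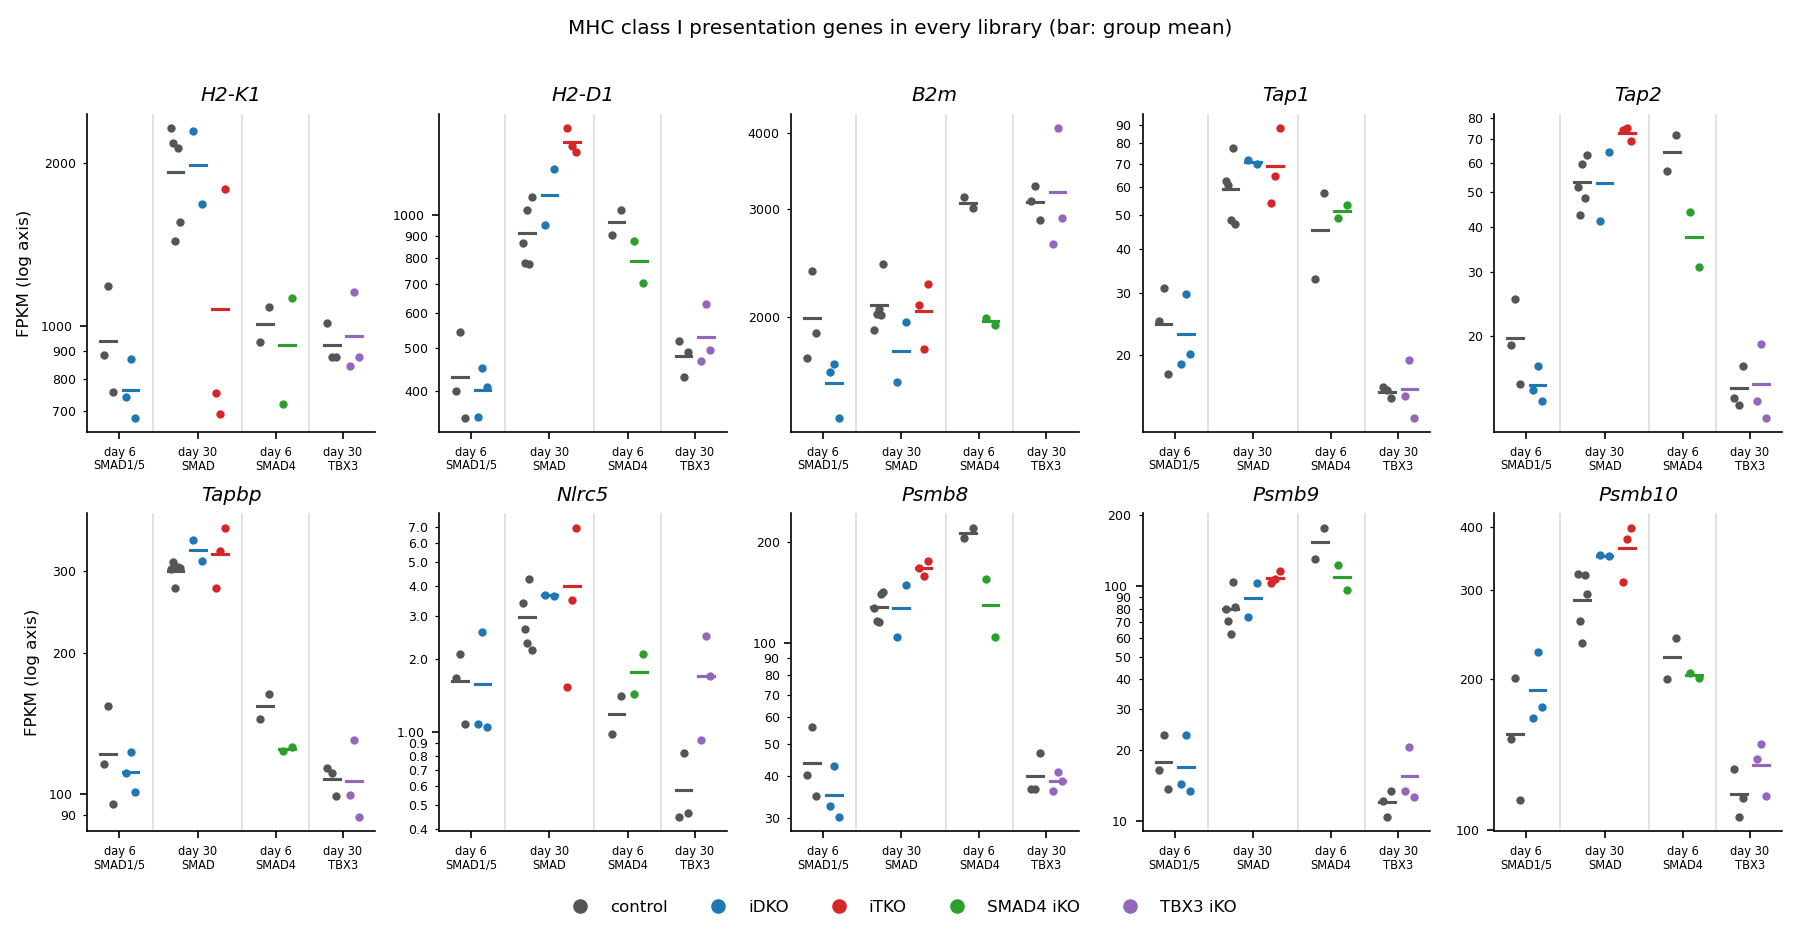
FPKM on a log axis of the 10 class I presentation genes in each of the 26 libraries, grouped by table and coloured by genotype, with bars at group means. Levels are to be compared within a table only; H2-K1 is low in 2 of 3 iTKO libraries, and B2m, Tap2 and Psmb8 are lower in both SMAD4 iKO libraries than in both controls.

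Control levels, per transcript length, followed a similar order in each table. B2m, the invariant light chain, was the most abundant of the 10, with control means from 1987 FPKM in the day 6 SMAD1/5 table to 3084 FPKM in the TBX3 table. H2-K1 and then H2-D1 followed it in all 4 tables, and Nlrc5 was last in all 4. At day 6 of the SMAD1/5 table the heavy chains had control means of 942 and 431 FPKM, Psmb10 156 FPKM, Tapbp 122 FPKM and Nlrc5 1.62 FPKM. Tap1, Tap2 and Psmb9 differed there by less than their spread, at 24.5 ± 6.67, 19.7 ± 5.34 and 17.9 ± 4.88 FPKM (SD, n = 3).

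The heavy chain H2-K1, which forms the peptide groove of one classical class I molecule, was at 2318, 2177, 1435, 2129.5 and 1557 FPKM in day 30 controls 1 to 5. It was at 753, 689 and 1788 FPKM in iTKO 1, 2 and 3. The iTKO 1 and iTKO 2 libraries lay below every control and iTKO 3 lay among them, so the groups overlapped. The change was -0.95 on the log2(FPKM + 0.5) scale used for all changes here (95% interval -1.61 to -0.29), with a limma adjusted p of 0.0498. The iTKO 3 library alone differed from the controls by -0.08, a description, since the other 2 were set aside for their low values. Among the 6 libraries with H2-DMb2 above 5 FPKM the difference was -0.62 (limma adjusted p = 0.351). Leaving out control 1, 2, 4 or 5 or iTKO 1 or 2, one at a time, also put the adjusted p above the threshold, between 0.0594 and 0.186.

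H2-D1, the heavy chain of a second classical molecule, took the opposite course in the same libraries. Its FPKM was 867, 778, 1026, 776 and 1102 in controls 1 to 5, and 1575, 1437 and 1395 in iTKO 1 to 3. Every iTKO library lay above every control, as for 13.3% of all genes. H2-D1 rose 1.63-fold, a log2 change of 0.70 (SE 0.15, limma adjusted p = 0.0081). Within the libraries with H2-DMb2 above 5 FPKM it rose by 0.46 (adjusted p = 0.0449), and against the controls of the SMAD1/4/5 line alone by 0.62 (adjusted p = 0.0424). With iTKO 3 as the only iTKO library the difference was 0.63 (adjusted p = 0.18, with that library assumed to vary like the other groups).

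The balance of the chains differed between day 30 libraries. The ratio of H2-K1 to H2-D1 FPKM had a median of 2.67 in controls, with a range of 1.40 to 2.80. Controls 3 and 5, with the high H2-DMb2, had the lowest ratios, and the other controls lay at or above that median. In the iTKO libraries, all with the high H2-DMb2, the ratio was 0.478, 0.479 and 1.28, all below the lowest control. It was 2.41 and 1.32 in iDKO 1 and 2, so iDKO 2 also lay below the lowest control and close to iTKO 3. Against controls 3 and 5, iTKO 3 and iDKO 2 were only slightly lower, and iTKO 1 and 2 were clearly apart. In the iDKO, H2-K1 was at 2291 and 1683 FPKM and H2-D1 at 950.4 and 1276 FPKM. The iDKO 2 library, which had the high H2-DMb2, held the lower H2-K1 and the higher H2-D1 of the pair, and neither gene passed the test (limma adjusted p = 0.933 and 0.271).

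**Figure D2:**
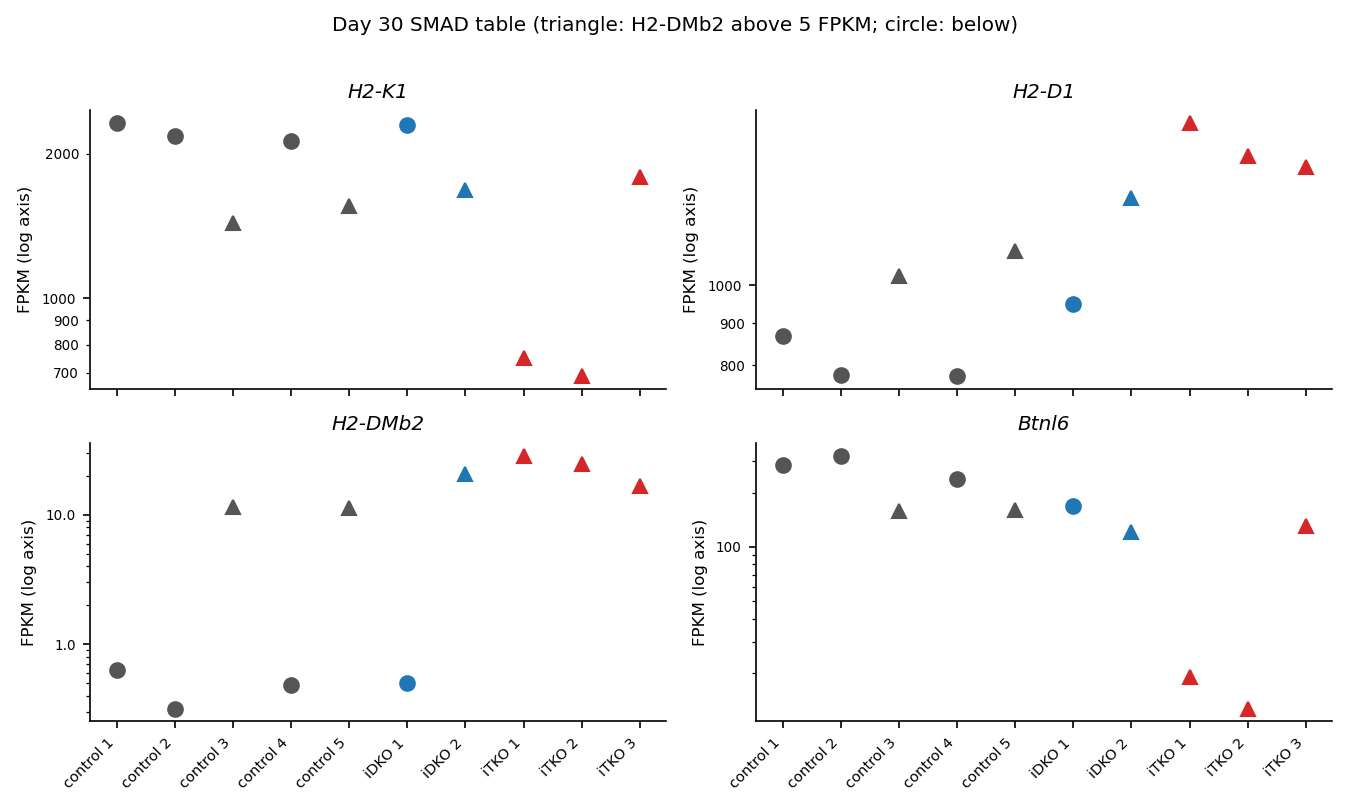
FPKM on a log axis in each of the 10 day 30 SMAD libraries for H2-K1, H2-D1, H2-DMb2 and Btnl6, with triangles for libraries with H2-DMb2 above 5 FPKM and circles for those below. Triangles among the controls have lower H2-K1 and higher H2-D1 than circles, and iTKO 1 and iTKO 2 are lowest in H2-K1 and Btnl6.

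Btnl6, a butyrophilin-like gene of the MHC region, tracked the low H2-K1 libraries, at 19.0 and 12.8 FPKM in iTKO 1 and iTKO 2 and 131 FPKM in iTKO 3. It was singled out after its values were seen. Controls had 159 to 320 FPKM. Among controls alone, the 2 libraries with high H2-DMb2 had the 2 lowest H2-K1 values and the 2 highest H2-D1 values of the 5.

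In the other tables neither heavy chain passed. At day 6, H2-K1 was 884, 1186 and 756 FPKM in controls and 739.9, 869.9 and 679 FPKM in iDKO, overlapping groups with a difference of -0.29 (95% interval -0.76 to 0.19). H2-D1 differed there by -0.08 (95% interval -0.54 to 0.38). In the SMAD4 iKO, H2-K1 was 719 and 1127 FPKM against 937 and 1088 FPKM in controls. H2-D1 was 877 and 702 FPKM against 902 and 1028 FPKM, lower in both mutants (log2 difference -0.30, limma adjusted p = 0.361). In the TBX3 iKO the intervals were -0.30 to 0.39 for H2-K1 and -0.20 to 0.48 for H2-D1.

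B2m encodes the light chain shared by class I molecules and by class I-like molecules such as the neonatal Fc receptor. In the SMAD4 table it was 3140.0 and 3011 FPKM in controls and 1986 and 1941 FPKM in SMAD4 iKO. The groups did not overlap, as was the case for 23.8% of all genes in that direction, and the replicates of each group lay close together. The difference of -0.65 (95% interval -0.93 to -0.36) was 1.57-fold and missed the threshold with a limma adjusted p of 0.0538. It passed when genes under 5 FPKM were left out (adjusted p = 0.031) or when libraries were centred on their medians (adjusted p = 0.0488).

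B2m was also lower in each day 6 iDKO library than in each control, at 1623, 1673 and 1365 FPKM against 1709.6 to 2372 FPKM. It was the only one of the 10 whose groups did not overlap there (13.5% of all genes did so in that direction, and 35.8% in the other, with none of the 10), and its difference of -0.35 had a limma adjusted p of 0.2. At day 30, B2m differed by -0.25 in iDKO and -0.03 in iTKO from the shared controls, which ranged from 1899 to 2442 FPKM. In the TBX3 table it was 3093, 3279 and 2879 FPKM in controls and 2632, 4073 and 2903 FPKM in TBX3 iKO, overlapping groups.

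Tap1 and Tap2 form the transporter that moves peptides into the endoplasmic reticulum. Tap2 was at 74.4, 75.0 and 69.4 FPKM in iTKO 1 to 3, above all 5 controls (43.2 to 63.3 FPKM), as for 13.3% of all genes. Its difference of 0.46 missed the threshold (limma adjusted p = 0.0608) and passed without control 5 (adjusted p = 0.0441). Controls 3 and 5, with the high H2-DMb2, had 59.7 and 63.3 FPKM, against 51.7, 43.2 and 48.1 FPKM in controls 1, 2 and 4. Among the libraries with H2-DMb2 above 5 FPKM the Tap2 difference was 0.24, the lowest of the alternatives. In the SMAD4 iKO Tap2 was 43.9 and 31.0 FPKM against 57.1 and 72.1 FPKM, a difference of -0.79 (95% interval -1.35 to -0.23, adjusted p = 0.141). Tap1 overlapped between groups in every comparison, with differences from -0.09 to 0.28. Its SMAD4 controls were far apart, at 32.8 and 57.6 FPKM.

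Tapbp encodes tapasin, which bridges TAP and the heavy chain while peptide loads. At day 30 its controls were at 276 to 315 FPKM, iDKO at 349.7 and 316 FPKM and iTKO at 277 to 372 FPKM. Its difference was 0.14 in iDKO, where both libraries lay above every control (as for 17.9% of all genes), and 0.11 in iTKO. In the SMAD4 iKO it was 124 and 126 FPKM against 145 and 164 FPKM (difference -0.30, limma adjusted p = 0.268).

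The immunoproteasome subunits Psmb8, Psmb9 and Psmb10 take the places of Psmb5, Psmb6 and Psmb7 in the proteasome core. Psmb8 was at 167, 158 and 175 FPKM in iTKO and at 127, 116, 115, 139.7 and 141 FPKM in controls 1 to 5. The groups did not overlap. In all, 3 of the 10 class I genes, H2-D1, Tap2 and Psmb8, lay above every control in each iTKO library, against 13.3% of all genes. Psmb8 rose 1.31-fold, a log2 change of 0.39 with a limma adjusted p of 0.0486. That call was lost without control 1, 2, 3 or 4 or any 1 iTKO library (adjusted p 0.0521 to 0.162), while its difference stayed between 0.35 and 0.42.

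Psmb9 and Psmb10 differed by 0.46 and 0.34 in the iTKO, with limma adjusted p of 0.0642 and 0.0828. Psmb9 had 103, 107 and 115 FPKM in iTKO against 62.4 to 103 FPKM in controls, and control 4 alone reached into the iTKO range. Without control 4 it rose by 0.56 (adjusted p = 0.0189), and among libraries with high H2-DMb2 by 0.60 (adjusted p = 0.0324). Against iDKO, no subunit passed in iTKO. The difference of Psmb8 there was 0.41 (95% interval 0.08 to 0.75), and iDKO 1 and 2 were far apart at 104 and 149 FPKM. Psmb10 was at 352 and 350 FPKM in the day 30 iDKO, above every control (235 to 324 FPKM), as for 17.9% of all genes, and did not pass.

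The SMAD4 iKO had the opposite sign for these subunits. Psmb8 was 155 and 104 FPKM against 205 and 220.4 FPKM, a difference of -0.74 (95% interval -1.28 to -0.20, limma adjusted p = 0.147). Psmb9 was 122 and 95.9 FPKM against 129.8 and 176 FPKM. Psmb10 overlapped, with 205 and 201 FPKM against 200.4 and 242 FPKM. For the SMAD4 iKO, 6 of the 10 class I genes lay below both controls in both mutants, H2-D1, B2m, Tap2, Tapbp, Psmb8 and Psmb9 (23.8% of all genes did), and Nlrc5 alone lay above (29.1% of all genes).

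In the day 6 iDKO, Psmb8 was 32.6, 42.9 and 30.3 FPKM against 40.5, 56.2 and 34.97 FPKM. Each iDKO library was below the control of the same number. The difference of -0.30 had a limma adjusted p of 0.299, and of 0.0485 with the replicate number as a block. Psmb10 was the only one of the 10 with a positive difference at day 6, 0.31 (95% interval -0.21 to 0.83). In the TBX3 iKO the differences of the 3 subunits ran from -0.05 to 0.34 and their groups overlapped.

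**Figure D3:**
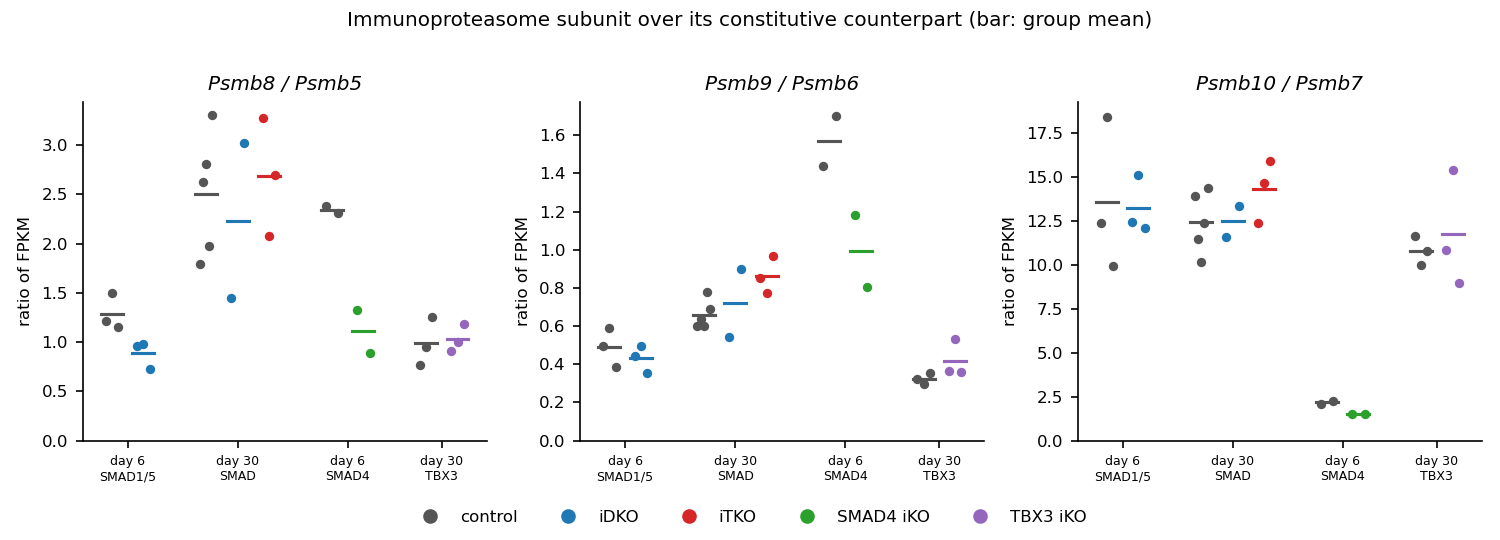
Ratio of the FPKM of each immunoproteasome subunit to that of its constitutive counterpart in each library, by table and genotype, with bars at group means and axes from 0. In the SMAD4 table the mutants lie below the controls for all 3 ratios, and at day 6 the iDKO lie below the controls for Psmb8 over Psmb5.

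The ratios of the subunits to their constitutive counterparts are a description, with no test. The ratio of Psmb8 to Psmb5 was 2.31 and 2.38 in SMAD4 controls and 0.89 and 1.33 in SMAD4 iKO. The ratio of Psmb9 to Psmb6 was 1.44 and 1.70 against 0.802 and 1.18. At day 6 the Psmb8 to Psmb5 ratio ran from 1.15 to 1.503 in controls and from 0.725 to 0.984 in iDKO, groups that did not overlap. At day 30 and in the TBX3 table the ratios of Psmb8 to Psmb5 overlapped between groups. The ratio of Psmb9 to Psmb6 was higher in every TBX3 iKO library, at 0.358 to 0.532, than in the controls, at 0.295 to 0.351. None of the 14 constitutive core genes passed in the SMAD4 or TBX3 iKO, and 2 of 14 rose in each of the day 6 iDKO, day 30 iDKO and iTKO, where 15.5%, 9.43% and 9.13% of all genes did. Psmb2, a core subunit, was among them each time, by 0.62, 0.62 and 0.51. In the SMAD4 iKO 13 of the 14 had positive differences, and 11 lay above both controls in both mutants (29.1% of all genes). Psmb5, Psmb6 and Psmb7 differed there by 0.37, 0.20 and 0.41, and Psmb10 by -0.11, so the lower ratios include higher denominators. At day 6 all 14 had positive differences, 9 lay above every control (35.8% of all genes), and Psmb5 differed by 0.24.

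Nlrc5, the class I coactivator, was the lowest and most variable of the 10. In the TBX3 table it was 0.448, 0.824 and 0.466 FPKM in controls and 0.928, 2.49 and 1.70 FPKM in TBX3 iKO. The groups did not overlap (8.23% of tested genes did so in that direction), but it fell under 1 FPKM in 4 libraries, too many for the filter, and was not tested. Its lowest value in that table corresponded to about 46.7 fragments. In the iTKO it ran from 1.54 to 6.94 FPKM, wider than the controls at 2.19 to 4.26 FPKM.

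Class II genes, set beside class I, passed the test in the SMAD4 and TBX3 iKO. None of the class II genes tested passed in the day 6 iDKO (7 tested), day 30 iDKO, iTKO or iTKO against iDKO (8 each). Whether the replicate numbers pair the day 6 libraries is uncertain. With those numbers as a block, H2-Aa, H2-Ab1 and H2-Eb1 fell in the day 6 iDKO by 0.91, 0.65 and 0.49 (limma adjusted p = 0.009, 0.0147 and 0.0236). The other 2 retested, Cd74 and Ciita, did not pass. H2-Aa also passed there with genes under 5 FPKM left out (adjusted p = 0.0492). In the SMAD4 iKO, 6 of the 8 tested fell (2.14% of all genes), with a list median of -1.64 against -0.30 for class I. Ciita, the class II coactivator related to NLRC5, was 12.1 and 11.3 FPKM in controls and 4.21 and 2.36 FPKM in SMAD4 iKO, a change of -1.73 (limma adjusted p = 0.0424). Cd74, the invariant chain, fell by 1.45, and H2-Aa, H2-Ab1 and H2-Eb1, chains of class II molecules, by 1.99, 1.66 and 1.62 (adjusted p from 0.0229 to 0.0462).

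In the TBX3 iKO, 4 of the 6 class II genes tested rose (1.34% of all genes), with a median of 1.59 against 0.03 for class I. Cd74 was 139, 92.8 and 223 FPKM in controls and 457, 1047 and 515 FPKM in TBX3 iKO, a change of 2.14 (limma adjusted p = 0.0397). H2-Aa rose by 2.48 (adjusted p = 0.0251). TBX3 iKO 2 was highest in class II and in class I alike, above the control mean in 10 of 10 class I genes, while TBX3 iKO 1 and 3 were above it in 3 of 10 each. Of 5 class II genes retested in the SMAD4 iKO, Cd74, Ciita, H2-Aa, H2-Ab1 and H2-Eb1, all 5 passed, 0 without control 2 or SMAD4 iKO 2, and 1 without control 1 or with no filter. Of 5 retested in the TBX3 iKO, with H2-DMb1 in the place of Ciita, 4 passed, 1 without TBX3 iKO 2, and 0 without any other single library, with no filter or with the replicate block. Of the B and plasma cell markers, which mark cells that also make class II, 2 could be tested in the TBX3 iKO and neither passed (differences 0.48 and 1.23). The summed level of the 10 listed was 19.9 FPKM in TBX3 iKO 2, 1.74 and 7.88 FPKM in TBX3 iKO 1 and 3, and 2.44 to 4.81 FPKM in controls. Myeloid markers summed to 9.14 to 15.2 FPKM in TBX3 iKO and 10.2 to 14.6 FPKM in controls. The part of these cells in the class II values was not tested. The difference between the lists was not tested.

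**Figure D4:**
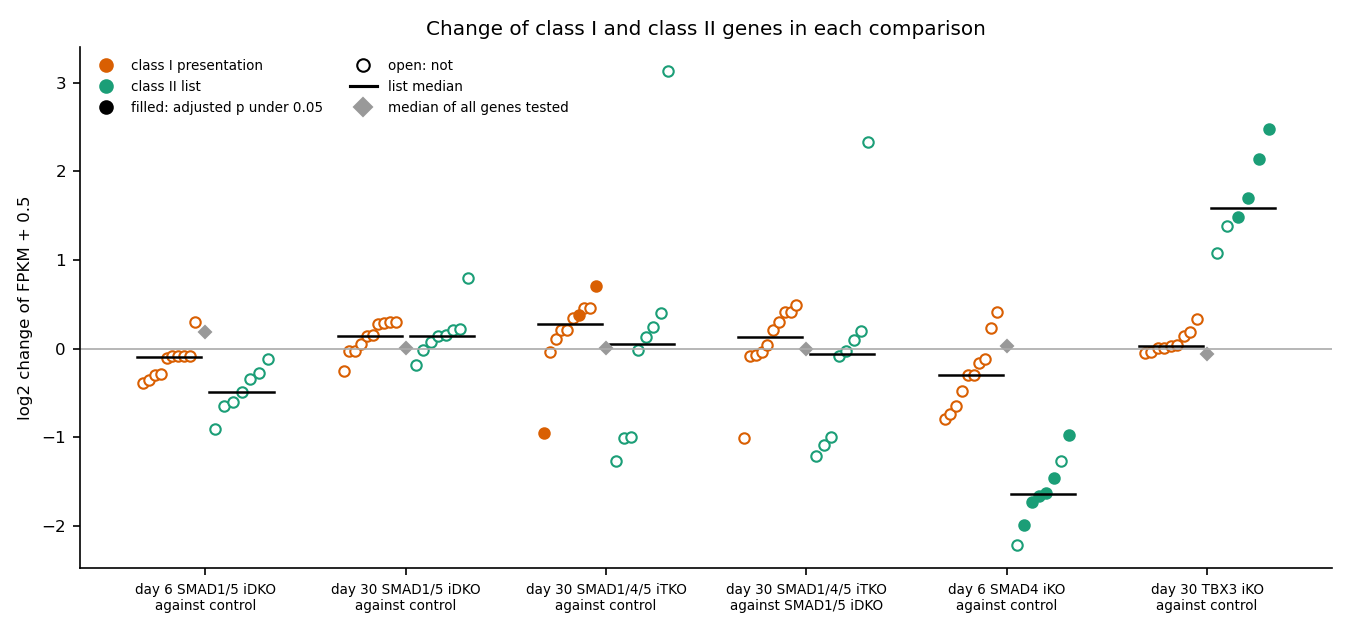
Log2 change of FPKM + 0.5 for each class I presentation gene and each class II gene tested in the 6 comparisons, filled where the adjusted p is under 0.05, with list medians as bars and the median of all genes tested as diamonds. Class I medians lie between -0.30 and 0.28, while class II medians are -1.64 in the SMAD4 iKO and 1.59 in the TBX3 iKO.

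At day 30 the class II chains followed the libraries that differed in H2-K1. H2-Ab1 was 427 and 313 FPKM in iTKO 1 and 2, 984 FPKM in iTKO 3, 793 and 712 FPKM in controls 3 and 5, and 1147 to 1337 FPKM in controls 1, 2 and 4. H2-Eb1 did not show that pattern, at 365 to 569.9 FPKM in iTKO and 415 to 518 FPKM in controls. The iTKO differences of H2-Ab1 and H2-Aa were -1.01 and -1.27 with limma adjusted p of 0.0646 and 0.0552. Without iTKO 3 both fell (adjusted p = 0.0078 and 0.00939), and without control 5 H2-Aa fell (adjusted p = 0.0439).

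Class I-like chains, most of which also pair with beta-2 microglobulin, included genes that passed in several comparisons. Fcgrt, the heavy chain of the neonatal Fc receptor that carries IgG across epithelia, was 45.3, 65.9 and 45.7 FPKM in day 6 controls and 313, 395 and 339 FPKM in iDKO. It rose 6.69-fold there (log2 change 2.74, limma adjusted p = 0.000308), and rose by 2.40 in the day 30 iDKO and by 1.12 in the iTKO. The iTKO level of 190 to 243 FPKM was below the iDKO level of 483 and 605 FPKM, a change of -1.28 (adjusted p = 0.00726). Without iDKO 1 that difference was -1.12 with an adjusted p of 0.1. In the SMAD4 and TBX3 iKO its differences were 0.49 and -0.11 and did not pass.

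H2-Q1 and H2-Q2, nonclassical chains of the Q region, fell in the day 6 iDKO by 1.09 and 0.73 (limma adjusted p = 0.00534 and 0.0181). Both also fell in the SMAD4 iKO, H2-Q1 from 304 ± 14.7 to 84.0 ± 16.3 FPKM and H2-Q2 from 671 ± 15.1 to 290 ± 15.3 FPKM (SD, n = 2 each). H2-Q10 rose in the day 30 iDKO by 3.30 and in the iTKO by 2.12 from controls of 0.843 to 1.67 FPKM, near the pseudocount. Over the list, 1 of 13 rose and 2 fell at day 6, 3 of 15 rose and 1 fell in the day 30 iDKO, 5 of 15 rose in the iTKO, 1 of 16 rose and 3 fell in the SMAD4 iKO, and 0 of 12 passed in the TBX3 iKO. Of all genes, 15.5% rose and 8.26% fell at day 6, 9.43% rose and 9.31% fell in the day 30 iDKO, 9.13% rose in the iTKO, and 1.28% rose and 2.14% fell in the SMAD4 iKO. Copies of the Q region resemble H2-K1 and H2-D1, so these counts share their uncertainty.

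Of the other genes of class I assembly, which include the proteasome activator PA28 (Psme1 and Psme2), the aminopeptidase Erap1 and the chaperones of the loading complex, 5 of 12 rose in the iTKO (9.13% of all genes). Pdia3 and Calr, loading-complex chaperones, rose by 0.39 and 0.40, Psme1 by 0.37 and Erap1 by 0.35. In the day 30 iDKO 2 of 12 rose, Psme1 and Pdia3 (9.43% of all genes). At day 6 the count was 1 of 13, a smaller share than the 15.5% of all genes, and none passed in the SMAD4 (14 tested) or TBX3 iKO (13 tested).

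Type I interferon targets, which include Ifi44 and Ifit1, rose in 7 of 23 genes in the day 6 iDKO, 7 of 22 in the day 30 iDKO, 14 of 22 in the iTKO, 15 of 24 in the SMAD4 iKO and 1 of 22 in the TBX3 iKO. Their medians were 0.69, 1.06, 1.27, 1.73 and 0.03. Of all genes, 15.5%, 9.43%, 9.13%, 1.28% and 1.34% rose in the same comparisons. In the SMAD4 iKO this list rose while 8 of the 10 class I genes had negative differences, none past the test. Irf1, a transcription factor that also acts on class I promoters, was 45.6 to 51.3 FPKM in day 6 controls and 66.9 to 76.8 FPKM in iDKO, and rose by 0.59 (limma adjusted p = 0.00782). Its differences elsewhere did not pass and included -0.43 in the SMAD4 iKO.

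Lymphocyte markers were lower in several mutants, and class I genes are also made by lymphocytes. In bulk RNA, fewer such cells and less RNA per cell cannot be told apart. Of the markers tested, 0 of 14 passed in the day 6 iDKO (median -0.55), 10 of 17 fell in the day 30 iDKO (-0.83), 14 of 17 in the iTKO (-1.05), 1 of 15 in the SMAD4 iKO (-0.94), and 0 of 12 passed in the TBX3 iKO (-0.81). Of all genes, 8.26%, 9.31%, 8.95%, 2.14% and 2.08% fell in the same order. The summed FPKM of the 20 markers listed was 269 to 407 in day 30 controls, 144 to 186 in iDKO and 104 to 159 in iTKO. The sum over 19 markers was 240.3 and 219.8 in SMAD4 controls and 71.1 and 119.6 in SMAD4 iKO. In the TBX3 table TBX3 iKO 2 had 250.04 against 43.8 and 50.6 in the other mutants and 109 to 176 in controls. Their part in the class I values was not tested.

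Across the 26 libraries, values centred on each table's controls were averaged over the 10 genes, and 9028 other genes were compared with that mean by Pearson r. The closest were H2-Q4 (r = 0.85), Psme2 (0.82), PLAAT3 (0.81), H2-DMa (0.79), Ndufb7 (0.78), Aldh16a1 (0.78), Rab5c (0.75) and Stap2 (0.74). Among the 10 themselves r with the mean, of which each is a part, ran from 0.26 for H2-K1 to 0.91 for Psmb9. Centred on each genotype group instead, which leaves only variation between replicates, the closest were Neurl3 (0.89), H2-Q4 (0.88), H2-DMa (0.87), Cox15 (0.86), Atg4d (0.85), Igtp (0.85), Gp1bb (0.85) and Hcfc1r1 (0.85). H2-Q4 and H2-DMa were in both sets. Libraries of a table share their normalisation, and these values carry no test.

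Between replicates the 10 genes did not vary as 1 block. Tap2 followed H2-D1 most closely (r = 0.89), and Psmb8 followed Psmb9 (0.83). Over all 26 libraries r was -0.01 for H2-K1 with H2-D1 and -0.01 with Tap2. The ratio of H2-K1 to H2-D1 was nonetheless narrow within some groups, at 2.18 to 2.21 in day 6 controls and 1.77 to 1.84 in TBX3 iKO, against 1.40 to 2.80 in day 30 controls. Nlrc5 followed Tap1 (0.80) more than H2-D1 (0.07). Cd74 and H2-Ab1 followed the class I mean with r of 0.74 and 0.79.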

How the data were processed

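RNA-seq of 26 libraries was deposited as 4 tables of FPKM values per gene symbol, made by the authors, who per the submitters' processing notes used HISAT2 2.2.1 and featureCounts 2.0.1. The notes name the builds GRCm39 and mm10 without a role, and no strand setting is given in the sources used here, so no coordinates are given for the expression data. Promoters are from RefSeq, GRCm38.p6. Where a symbol was repeated within a table, its first row was kept and later rows were left out (34 rows in the day 6 SMAD1/5 table, 9 in the TBX3 table).

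Each table was analysed alone. Genes with at least 1 FPKM in as many libraries as the smallest group were tested by limma 3.58.1 (R 4.3.3, with a trend) on log2(FPKM + 0.5), with Benjamini-Hochberg adjustment over all genes tested and a threshold of 0.05. The pseudocount understates changes of low genes. The day 30 SMAD libraries were fitted together. On simulated data with 200 genes changed 2-fold, 81.5%, 89%, 91%, 81%, 61% and 88.5% were recovered in the 6 comparisons, in the order of the report, with 6, 10, 11, 8, 26 and 9 unchanged genes called. False calls were most frequent in the SMAD4 comparison, with 2 libraries a group. Depth was estimated from the steps between low FPKM values, of which 88.2% to 90.4% in the day 6 SMAD1/5 table were whole fragments within 0.1, but 45.9% to 48.8% at day 30 and about the 20% of evenly spread values in the SMAD4 table.

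The genes and lists were chosen with earlier results of these data known. Named were the 10 genes, 5 class II genes, Psmb5 to Psmb7, Irf1, up to 4 genes of smallest adjusted p per list, and the 8 genes most like the class I mean; H2-DMb2, H2-L and Btnl6 were chosen after their values were seen. Alternatives covered pseudocounts, filters, scaling, a replicate block, the libraries fitted and each library left out. Replicate numbers were shared between groups. In the day 6 SMAD1/5 table, deviations of same-numbered libraries had r of 0.14, 0.58 and 0.22 across genes. Differently numbered ones ran from -0.46 to 0.37. Control 1 was closer to iDKO 3 (0.37) than to iDKO 1, and control 3 closer to iDKO 1 (0.25) than to iDKO 3. Only number 2, low in Paneth cell genes, stood apart, so it is uncertain whether the numbers are pairs. 1 gene of the naming rule is not reported here.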

Additional observations from a re-analysis of the deposited data

Results flagged for a closer look

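Tapbp in control 3 of the day 30 SMAD table, at 275.8 FPKM, lay apart from the other 4 controls, which had 304 to 315 FPKM. It was the only library set apart by its distance from the others among 20 genes checked over 5 controls, and chance flags about 1 in 20 groups.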

How the results depend on the processing

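Of the class I values refitted under alternatives, none changed direction while called. In the day 30 iTKO the 2 genes called higher became 1 with no filter, 1 with quantile normalisation, 1 against controls of the same line, 4 with the compared groups fitted alone and 0 without iTKO 1 and 2, and ranged from 1 to 3 with single libraries left out. The 1 gene called lower, H2-K1, became 0 with no filter, quantile normalisation, the compared groups alone, controls of the same line, libraries with H2-DMb2 above 5 FPKM alone, and without iTKO 1 and 2, and ranged from 0 to 1 with single libraries left out. The last alternative and the H2-DMb2 split were chosen after seeing the data, as was leaving out control 2 and iDKO 2 at day 6. With the replicate block, 0 genes passed in either direction in the iTKO, where H2-D1 had a limma adjusted p of 0.0649, and 1 was lower in the day 6 iDKO, Psmb8. Same-numbered libraries did not deviate together at day 30 or in the TBX3 table, and the SMAD4 table had 2 pairs. In the SMAD4 iKO 1 gene was lower under the filter at 5 FPKM and 1 with median centring, B2m each time. Between iTKO and iDKO, 0 to 1 gene was higher with single libraries left out, Psmb8 without iDKO 2. The cause was not tested. Where 1 library remained in a group, it was assumed to vary like the others, and iTKO 1 and 2 were set aside for their own low H2-K1. Over all genes, calls as higher and lower were 1681 and 894 in the day 6 iDKO (alternatives 767 to 1924 and 580 to 1193), 1126 and 1112 in the day 30 iDKO (294 to 1164 and 315 to 1107), 1090 and 1069 in the iTKO (328 to 1138 and 362 to 1108), 26 and 65 between them (1 to 28 and 7 to 69), 156 and 261 in the SMAD4 iKO (98 to 314 and 135 to 520) and 131 and 204 in the TBX3 iKO (23 to 159 and 17 to 207). Of all calls 65.3% were higher in the day 6 iDKO, but 39.1% with median centring and 49.0% with quantile normalisation, and the median of all genes moved from 0.18 to 0.01. In the TBX3 iKO 39.1% were higher, and 53.3% with median centring. Depth is unknown in the SMAD4 table.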
